A study of Mus musculus with 6 samples.

Results

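Interleukin-2 (IL-2) and the 3 chains of its receptor were followed in the spinal cord during experimental autoimmune encephalomyelitis (EAE), an inflammatory disease of the central nervous system that serves as a mouse model of multiple sclerosis. The genes are Il2, Il2ra, Il2rb and Il2rg, 4 of the 19449 genes in the single-cell table. They were selected on measured values of the same libraries, since Il2 was picked for its lower level in T cells of the older recipients on both days. The comparison of ages in T cells is therefore given as a description, without a test, for all 4 genes.

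EAE was induced in naive C57BL/6 recipients by intraperitoneal transfer of CD4+ T cells. The donors, 8 to 12 weeks old, had been immunized with a peptide of myelin oligodendrocyte glycoprotein (MOG), and their cells were cultured with that peptide, IL-23, IL-1 alpha and an antibody against IFN-gamma before CD4+ cells were purified with magnetic beads. Recipients were young (8 to 12 weeks) or middle-aged (40 to 44 weeks), and all received the transfer, so that no single-cell library came from an animal without disease. CD45+ cells, which are leukocytes and microglia, were sorted from spinal cords on day 6 or day 10 posttransfer. Each of the 4 libraries pooled 4 spinal cords, with 1 library per age and day, and the cords within a pool cannot be told apart. In the study donors usually carry the CD45.1 marker, but the deposited table does not separate donor from host T cells. A further 2 libraries are bulk RNA from microglia of naive young and naive middle-aged mice, 1 per age.

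IL-2 is made mainly by activated CD4+ T cells and acts on the cells that make it and on their neighbors. The alpha chain (Il2ra, CD25) raises the affinity of the receptor and marks activated and regulatory T cells. The beta chain (Il2rb, CD122) is shared with the IL-15 receptor, and the common gamma chain (Il2rg, CD132) also serves the receptors for IL-4, IL-7, IL-9, IL-15 and IL-21. Beta and gamma carry the signal through JAK1, JAK3 and STAT5. Regulatory T cells, defined by the transcription factor Foxp3, depend on IL-2 and make little of it themselves.

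In GRCm38, the assembly also known as mm10, the genes lie at chr3:37120523-37125959 on the minus strand (Il2), chr2:11642807-11693193 on the plus strand (Il2ra), chr15:78479256-78495271 on the minus strand (Il2rb) and chrX:101264378-101268255 on the minus strand (Il2rg), all protein coding in GENCODE vM21. The promoter of Il2 is the switch through which T cell activation acts, by NFAT, AP-1 and NF-kappaB family factors whose genes are described at the end of the day comparison. The 300 bases around its RefSeq start (GRCm38.p6, chr3:37125905-37126204, minus strand, 250 bases before the start and 50 after) are shown for that reason, with GGAAA, the core bound by NFAT, in capitals on either strand.

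Il2 promoter: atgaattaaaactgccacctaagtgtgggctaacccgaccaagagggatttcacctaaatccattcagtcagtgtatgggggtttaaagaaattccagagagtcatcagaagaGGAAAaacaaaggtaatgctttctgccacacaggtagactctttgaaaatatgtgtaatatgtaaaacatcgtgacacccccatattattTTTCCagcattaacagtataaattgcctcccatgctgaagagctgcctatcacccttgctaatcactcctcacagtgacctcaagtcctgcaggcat

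The window held 2 matches to GGAAA, and 26.7% of 32851 RefSeq promoters held as many. At least 1 match was present in 61.3% of them, so these letters are common in windows of this length. TGANTCA, the consensus of AP-1, had 0 matches in the Il2 window and was found in 7.81% of promoters.

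Levels were read as unique molecular identifiers (UMIs, each of which marks 1 captured transcript) summed over the cells of a cluster in a library and divided by the summed UMIs of all genes, in counts per 1000000 (CPM). The table holds 38057 cells in 16 clusters numbered by the authors, with 8315 to 10026 cells and 57337626 to 69859331 UMIs per library. Of 37903 different cell barcodes, 154 occurred in more than 1 library. Cluster 2, with 6830 cells, was T cell-like: all 9 T cell markers were found in every library, at a summed 5490 to 6085 CPM. By library this cluster had 1307, 1137, 1923 and 2463 cells, whose median depth was 4715, 5034, 6225 and 5345 UMIs (library values are listed throughout in the order young day 6, middle-aged day 6, young day 10, middle-aged day 10). Cluster 9 was NK-like, 4 B cell-like, 7 dendritic cell-like, 1 and 5 monocyte/macrophage-like, 10 microglia-like and 0, 3 and 6 neutrophil-like, while 8 and 11 to 15 were left unnamed. The name of cluster 5 is tentative: its neutrophil markers summed to 7410 CPM, above the 4591 of its monocyte/macrophage markers. Its T cell markers summed to 793 CPM, and none of its leading genes was a listed marker. Intervals are 95% intervals that cover counting error only, exact unless another method is named.

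**Figure D1:**
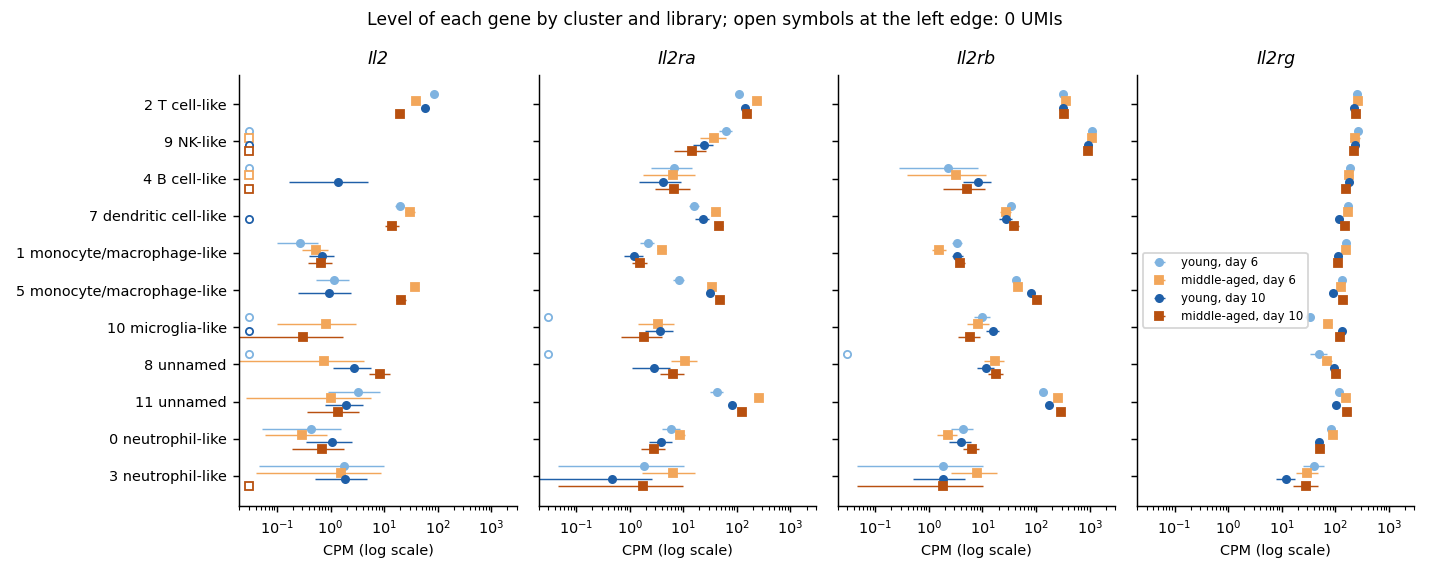
CPM of each gene (log scale) in 11 clusters with 50 or more cells in every library, 1 symbol per library with its exact 95% Poisson interval; open symbols at the left edge mark 0 UMIs. Il2 was highest in the T cell-like cluster except in the middle-aged day 10 library (19.4 CPM, against 20.7 in cluster 5), Il2rb was highest in the NK-like cluster at 930 to 1092 CPM, and Il2rg was found in all 11 clusters.

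Il2, the cytokine gene, was rare: 2748 UMIs in all cells, 71.9% of them in the T cell-like cluster. In that cluster the 4 libraries held 603, 267, 807 and 300 Il2 UMIs, or 85.1, 38.9, 58.2 and 19.4 CPM. Both middle-aged libraries lay below both young libraries. The middle-aged to young log2 ratio was -1.13 [-1.34, -0.92] on day 6 and -1.58 [-1.78, -1.39] on day 10, the contrast by which the gene was chosen.

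These sums came from very few cells. A single cell held 543 of the 603 UMIs of the young day 6 library, and another held 467 of the 807 of the young day 10 library. The highest cells of the middle-aged libraries held 82 and 99. Without the highest cell of each library, 60, 185, 340 and 201 UMIs were left, and the log2 ratio turned to 1.67 [1.24, 2.12] on day 6 and became -0.92 [-1.17, -0.66] on day 10. Without the 10 highest cells of each, 23, 30, 93 and 81 UMIs were left, with ratios of 0.43 [-0.40, 1.28] and -0.36 [-0.81, 0.08], both intervals spanning 0. The lower summed level in middle-aged recipients on day 6 thus rested on 1 cell. Leaving out T cell-like cells in which markers of a different lineage had 2 UMIs or more, which kept 390, 384, 292 and 1174 cells, gave -4.03 on day 6 and 1.27 on day 10. This rule kept the young day 6 cell with 543 Il2 UMIs and removed the young day 10 cell with 467. It also removed the T cell-like middle-aged day 6 cells with 82, 57, 38 and 27, so both values depended on which of the richest cells were kept.

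**Figure D2:**
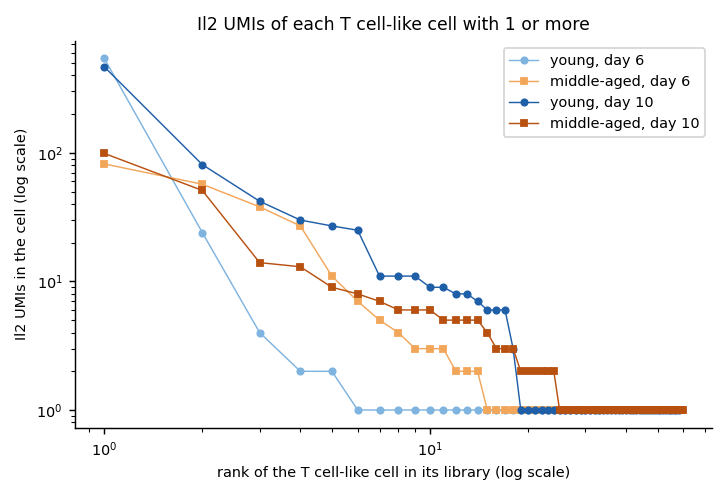
Il2 UMIs in each T cell-like cell with 1 or more (log scale) against the rank of the cell in its library (log scale), 1 line per library. The first cell of each young library, with 543 and 467 UMIs, stands far above the first cells of the middle-aged libraries, with 82 and 99.

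The number of cells with Il2 did not show this age difference. An Il2 UMI was found in 33, 35, 58 and 60 T cell-like cells, which is 2.52%, 3.08%, 3.02% and 2.44% of the cluster. After thinning each cell to 2000 UMIs, since cells differ in depth, the shares were 1.25%, 1.83%, 1.76% and 1.40%. The middle-aged minus young difference was 0.57 [-0.43, 1.66] percentage points on day 6 and -0.36 [-1.16, 0.40] on day 10 (Newcombe intervals). Thinned to 1000 UMIs, it was 0.91 [0.03, 1.90] points on day 6, with the middle-aged share higher, and -0.22 [-0.90, 0.40] on day 10. Cell types that should lack the gene gave a background, whose source was not tested: 0% to 0.474% of B cell-like cells and 0% to 0.268% of neutrophil-like cells of cluster 0 at the same thinned depth. Their median depths before thinning were 2402 to 2997 and 2193 to 2365 UMIs. The T cell-like shares lay above these.

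**Figure D3:**
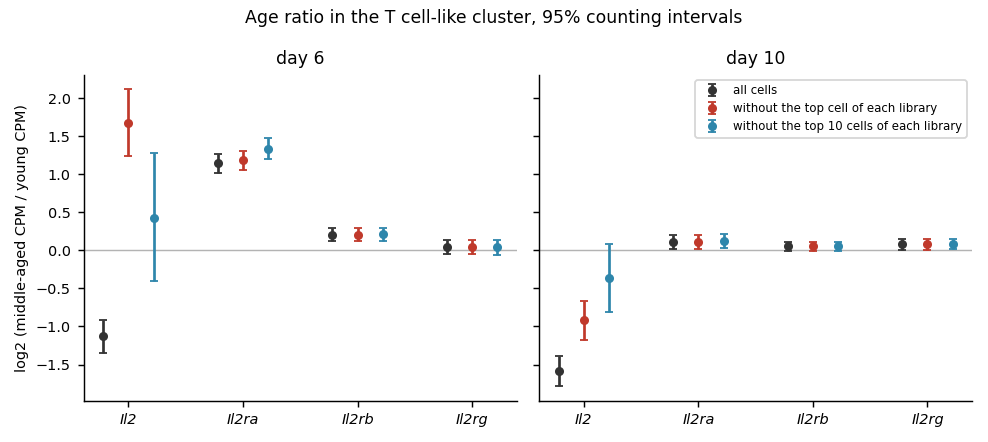
Middle-aged to young log2 ratio of CPM in the T cell-like cluster on each day, for all cells, without the cell with the most UMIs of the gene in each library and without the 10 such cells, with 95% counting intervals. For Il2 the day 6 ratio moves from -1.13 to 1.67 without 1 cell per library, whereas the ratios of the receptor chains move little.

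Over all clusters, 29 cells held 10 or more Il2 UMIs and together held 2287 of the 2748, or 83.2%. By library they were 3 of 8315, 10 of 10026, 9 of 9843 and 7 of 9873 cells, so the middle-aged day 6 library had the most. Of the 29, 20 were in the T cell-like cluster. All 29 held UMIs of Trac, a T cell receptor constant gene (12 to 140 UMIs over the T cell markers), and of Tnfrsf4, the costimulatory receptor OX40 of activated T cells. Cd4 was found in 24, Cd8a in 0 and Foxp3 in 0.

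The other cytokines differed from cell to cell among the Il2-rich cells. Tnf was found in 22, Csf2 (GM-CSF) in 19, Ifng in 15, Il17a in 12 and Il10, an inhibitory cytokine, in 0 of the 29. The young day 6 cell with 543 Il2 UMIs held 27 UMIs of Csf2, 1 of Ifng and 1 of Il17a. The young day 10 cell with 467 held 361 of Csf2, 485 of Ifng and 91 of Il3, a growth factor gene, with 1 of Il17a. A middle-aged day 6 cell with 82 held 320 of Il17a, 96 of Il22 and 72 of Il17f, with 0 of Csf2. High Il2 thus occurred in cells rich in Ifng and in cells rich in Il17a. Among the receptor genes, Il2ra was found in 22, Il2rb in 23 and Il2rg in 25 of the 29. The 20 in the T cell-like cluster had a median depth of 9049.5 UMIs, against 4715 to 6225 for all cells of that cluster by library. The part of depth in these counts was not tested. Over all T cell-like cells with an Il2 UMI, Il2ra was found in 15.2%, 34.3%, 48.3% and 35%. In those without an Il2 UMI it was found in 22.1%, 41.3%, 42.2% and 39.6%, with overlapping intervals in every library. The young day 6 cell with the most Il2 held 0 UMIs of Il2ra and Il2rb and 1 of Il2rg.

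Taking every T cell-like cell with an Il2 UMI, whatever its number, Tnfsf11 (RANKL) was found in 30.3%, 37.1%, 58.6% and 46.7%, against 10.3%, 16.2%, 38.4% and 36.3% of cells without one. Tnfrsf4 was found in 54.5%, 71.4%, 67.2% and 65%, against 33.2%, 53.8%, 56.8% and 49.6%. Both shares were higher in cells with Il2 in all 4 libraries. The intervals of cells with and without Il2 overlapped for Tnfsf11 in the middle-aged day 10 library. For Tnfrsf4 they overlapped in every library but young day 6. For Csf2 the shares were 9.09%, 22.9%, 20.7% and 26.7%, against 3.61%, 11.3%, 20.7% and 15.5%, level in the young day 10 library. Tnf and Ifng showed no such order. Tnf was found in 12.1%, 37.1%, 34.5% and 26.7%, against 13.8%, 22.0%, 34.1% and 30.3%. Ifng was found in 21.2%, 20%, 34.5% and 21.7%, against 19.5%, 26.2%, 33.3% and 27.9%. Cells with an Il2 UMI also tended to hold Cd4, at 63.6%, 62.9%, 74.1% and 68.3% against 49.1%, 53.3%, 63.8% and 61.5%. The median depth of the cells with Il2 was 5003, 5619, 6342 and 5411 UMIs, against 4705, 4978, 6218 and 5345 for those without, and the part of depth in these shares was not tested.

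Foxp3 and Il2 were not found together. The T cell-like cluster held 37, 19, 48 and 88 cells with a Foxp3 UMI, and 0 of them had an Il2 UMI in any library. The exact upper limits of the share were 9.49%, 17.6%, 7.40% and 4.11%. Within a single library, a share as low as that of the other T cells could therefore not have been told from 0, and the libraries were not pooled for this. NK-like cells gave no Il2 UMI either: 0 of 259, 96, 243 and 181 cells, with exact upper limits of 1.41%, 3.77%, 1.51% and 2.02%.

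The 9 remaining Il2-rich cells lay in clusters 5, 7, 8 and 13, and 8 of them came from middle-aged libraries. They brought the Il2 level of cluster 5, monocyte/macrophage-like, to 1.15, 38.1, 0.925 and 20.7 CPM, higher in the middle-aged library on both days. In cluster 5, 98.3% of the Il2 UMIs were in cells with 2 or more T marker UMIs, and in cluster 7, dendritic cell-like, 96.2%. Such cells were 14.6% to 49.4% of cluster 5 by library. The median depth of the 9 cells was 16823 UMIs, against 9049.5 for the 20 in the T cell-like cluster. Most held markers of another lineage besides, among them 1 middle-aged day 10 cell of cluster 5 with 83 Il2 UMIs, 44 T marker UMIs and 97 UMIs of monocyte/macrophage markers. Whether these are doublets was not tested, and no doublet caller was run. Counting every cell whatever its cluster, the libraries held 757, 654, 860 and 477 Il2 UMIs, and the log2 age ratio was -0.29 [-0.44, -0.14] on day 6 and -0.77 [-0.94, -0.61] on day 10. Without the highest cell of each library, 214, 499, 393 and 378 UMIs were left and the ratio was 1.14 [0.91, 1.38] on day 6 and 0.021 [-0.19, 0.23] on day 10, so the lower level over all cells also rested on 1 cell per library.

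Between day 6 and day 10, the summed Il2 level of the T cell-like cluster went down in both ages. With age as a block, edgeR's quasi-likelihood test gave a log2 change of -0.65 ± 0.19 (SE, 2 libraries per day), adjusted p = 0.0388. Il2 was the only 1 of the 4 genes called, in a comparison that called 7.22% of 11362 genes. The test used the same sums by which Il2 was picked. Picking a lower level on both days favors a small residual with age as a block, so nothing is read from the call. Without the highest cell of each library the change was 0.26 (adjusted p = 0.831, edgeR), with no call. It was also not called without the age block, at -0.55 (adjusted p = 0.583, edgeR). With 3 libraries no block can be fitted, so leaving out a library also drops it. Without the young day 6 library the change was then 0.07 (adjusted p = 0.848, edgeR) and without the middle-aged day 10 library 0.08 (adjusted p = 0.984, edgeR). DESeq2 gave -0.67 with an adjusted p = 0.249.

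Il2ra, the alpha chain, was at 109, 242, 144 and 156 CPM in the T cell-like cluster, from 775, 1661, 1999 and 2404 UMIs. The middle-aged day 6 library stood above the 3 others. The middle-aged to young log2 ratio was 1.15 [1.02, 1.27] on day 6 and 0.11 [0.02, 0.20] on day 10. Unlike Il2, it was spread over many cells: without the 10 highest cells of each library the ratios were 1.33 [1.20, 1.47] and 0.12 [0.04, 0.21]. After thinning to 2000 UMIs, 11.9%, 24.7%, 19.4% and 19.4% of the cells had an Il2ra UMI, a difference of 12.7 [9.63, 15.9] percentage points on day 6 and of 0.00 [-2.42, 2.38] on day 10. Young T cell-like cells of day 6 were thus the ones with the lowest level and the smallest share.

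The day 6 difference was seen in cells without a Foxp3 UMI. In cells with a Foxp3 UMI, the regulatory T cell marker, Il2ra was at 624, 598, 589 and 664 CPM, with log2 age ratios of -0.06 [-0.58, 0.44] and 0.17 [-0.11, 0.46], both spanning 0. In the other cells it was at 95.8, 238, 136 and 138 CPM, with ratios of 1.31 [1.18, 1.45] on day 6 and 0.02 [-0.07, 0.11] on day 10. Cells with a Foxp3 UMI held 14.7%, 2.83%, 7.30% and 14.5% of the Il2ra UMIs of the cluster. A cell that makes Foxp3 can lack a UMI of it, so the second group also holds such cells.

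**Figure D4:**
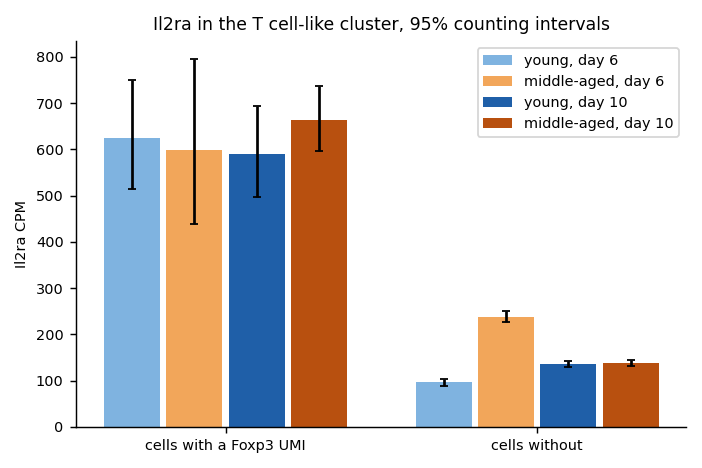
CPM of Il2ra in T cell-like cells with and without a Foxp3 UMI, 1 bar per library from 0, with exact 95% Poisson intervals. Among cells with a Foxp3 UMI the 4 bars lie between 589 and 664, and among the others the middle-aged day 6 bar at 238 stands above the remaining 3, at 95.8 to 138.

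With both ages together, Il2ra gave a log2 change of -0.02 ± 0.24 (SE) from day 6 to day 10 in the T cell-like cluster, with an adjusted p = 0.986 (edgeR). The sum over ages hid opposite values, as the level went from 109 to 144 CPM in young and from 242 to 156 in middle-aged recipients. With the age block dropped, the change was -0.14 (adjusted p = 0.859, edgeR) over all 4 libraries, -0.62 (adjusted p = 0.000446, edgeR) without the young day 6 library and 0.59 (adjusted p = 0.00147, edgeR) without the middle-aged day 6 library.

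The other clusters in the plot of levels by cluster held Il2ra at lower levels, except cluster 11 in the middle-aged day 6 library. Cluster 11 was left unnamed. Its leading genes included the basophil genes Prss34 and Mcpt8 and the division gene Nusap1, and its T cell markers summed to 3469 CPM. Il2ra was at 42.1, 256, 80.6 and 126 CPM in it, with 99.1% of the UMIs in cells with 2 or more T marker UMIs. Such cells were 70.8% of cluster 11, and 52.6% to 87.2% by library. Its order of libraries was that of the T cell-like cluster. In cluster 5 the level was 8.20, 33.8, 31.5 and 48.1 CPM, with 94.6% of the UMIs in cells with T markers. The ranges of the T cell-like cluster and cluster 11 overlapped, as did those of clusters 11, 9, 7 and 5, and the 6 remaining clusters in the plot of levels by cluster were at 10.8 CPM or less.

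In the dendritic cell-like cluster Il2ra was higher in middle-aged recipients. The genes were not chosen on this cluster, but the age contrast and the libraries were the same. Cells with T markers, in which Il2 was chosen by age, also occurred in it. The levels were 15.9, 40.4, 22.9 and 46.4 CPM, from 106, 119, 43 and 140 UMIs, and both middle-aged libraries lay above both young ones. edgeR gave a log2 difference of 1.23 ± 0.24 (SE, 2 libraries per age) with an adjusted p = 0.0259, the 1 receptor chain called of 3, where 0.466% of 9867 genes were called. DESeq2 gave 1.22 with an adjusted p = 0.9999, and edgeR without the day block also made no call (1.22, adjusted p = 0.9998). With the block dropped and 1 library left out, the values were 0.96 to 1.46 (adjusted p = 0.147 to 0.9996, edgeR), and the parts of the block and of the library in this loss cannot be told apart. Cells with 2 or more T marker UMIs held 55.2% of these UMIs. In the cells with 0 or 1 T marker UMI the levels were 8.27, 20.1, 17.0 and 27.2 CPM, higher in the middle-aged library on each day, with a log2 difference of 1.03 (adjusted p = 0.11, edgeR). Between days, 0 of the 3 chains were called in this cluster by edgeR (6.48% of genes were), 0 by DESeq2, and Il2rg alone had an unadjusted p under 0.05. The day change of Il2ra was 0.27 ± 0.24 (SE, adjusted p = 0.607, edgeR).

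In the NK-like cluster summed Il2ra fell between the days. It was at 62.1, 37.0, 24.0 and 14.2 CPM, from 60, 14, 22 and 10 UMIs, with both day 10 libraries below both day 6 libraries. Cells with 2 or more T marker UMIs were 60.1% to 72.9% of the cluster by library and held 75.5% of these UMIs. They were at 48.1, 45.5, 33.7 and 15.9 CPM. The cells with 0 or 1 T marker UMI held 25, 0, 0 and 1 Il2ra UMIs. No fall was therefore seen in the latter cells of middle-aged recipients. For the whole cluster the log2 change was -1.33 ± 0.33 (SE, 2 libraries per day), adjusted p = 0.00386 in edgeR. Il2ra was the 1 chain called of 3, where 2.24% of 7002 genes were called. The call was lost with DESeq2 (adjusted p = 0.9999), without a filter on low counts (0.193) and without the age block (0.0621). With the block dropped and 1 library left out, it was not called without the young day 6 library (-0.93, adjusted p = 0.434, edgeR) or the middle-aged day 10 library (-1.11, adjusted p = 0.485, edgeR). By age 0 of 3 chains were called by edgeR (0.600% of genes were) and 0 by DESeq2, with Il2ra at -0.70 ± 0.35 (SE, unadjusted p = 0.0449, adjusted p = 0.774, edgeR).

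Il2rb, the beta chain, was highest in NK-like cells, which respond to IL-15 through it. The levels there were 1090, 1092, 930 and 948 CPM, from 1053, 413, 853 and 666 UMIs. In T cell-like cells they were 320, 369, 325 and 337 CPM, from 2263, 2533, 4506 and 5214 UMIs. The ranges of the NK-like cluster, the T cell-like cluster, cluster 11 (135 to 297 CPM), cluster 5 (41.4 to 103) and cluster 7 (27.2 to 39.4) followed each other without overlap, and the other 6 clusters were at 17.6 CPM or less. In clusters 11 and 5, 99.8% and 98.3% of the Il2rb UMIs were in cells with 2 or more T marker UMIs. In NK-like cells neither comparison called Il2rb, with a log2 age difference of 0.05 ± 0.15 (SE, adjusted p = 0.998, edgeR) and a day change of -0.20 ± 0.15 (SE, adjusted p = 0.779, edgeR).

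In T cell-like cells the log2 age ratio of Il2rb was 0.21 [0.13, 0.29] on day 6 and 0.05 [0.00, 0.11] on day 10, a small part of the day 6 ratio of Il2ra. The day change was 0.06 ± 0.19 (SE, adjusted p = 0.939, edgeR). After thinning, 40.1%, 47.4%, 43.5% and 45.7% of the T cell-like cells had an Il2rb UMI, against 84.9%, 85.2%, 81.3% and 85.1% of the NK-like cells. B cell-like cells, which gave 0% to 1.42%, set the background.

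Il2rg, the common gamma chain, was the most widely found. Monocyte/macrophage-like cluster 1 held 36.1% of its 35879 UMIs and the T cell-like cluster 29.4%. T cell-like cells were at 258, 266, 229 and 241 CPM and NK-like cells at 266, 235, 230 and 219, and their ranges overlapped. B cell-like cells followed at 185, 178, 183 and 158 CPM and dendritic cell-like cells at 173, 174, 119 and 153, with overlapping ranges. Neutrophil-like cluster 3 was among the lowest, at 12.05 to 39.9 CPM. In T cell-like cells the log2 age ratio was 0.04 [-0.05, 0.14] on day 6 and 0.08 [0.01, 0.15] on day 10, and the day change was -0.05 ± 0.19 (SE, adjusted p = 0.944, edgeR).

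Il2rg was the 1 chain with enough UMIs to be tested in B cell-like cells. It was not called there by age (-0.02 ± 0.18, SE, adjusted p = 0.997, edgeR; 0.896% of 7364 genes were called) or by day (-0.03 ± 0.18, SE, adjusted p = 0.972, edgeR; 2.77% were). DESeq2 called it in neither comparison, and neither unadjusted p was under 0.05.

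Between the days, the level of Il2rg went in opposite directions in the microglia-like cluster and in monocyte/macrophage-like cluster 1. In the microglia-like cluster it went from 33.5 to 131 CPM in young recipients (log2 1.97 [1.68, 2.28]) and from 73.9 to 123 in middle-aged recipients (0.73 [0.47, 1.00]). On day 6 the middle-aged library was higher (log2 1.14 [0.80, 1.49]), and on day 10 the interval spanned 0 (-0.10 [-0.30, 0.10]). In microglia-like cells with 0 or 1 T marker UMI, which held 89.1% of these UMIs, the levels were 30.1, 72.3, 128 and 122 CPM. In monocyte/macrophage-like cluster 1 it went from 161 to 111 CPM in young (-0.53 [-0.61, -0.46]) and from 156 to 112 in middle-aged recipients (-0.48 [-0.55, -0.41]). Cluster 5, also monocyte/macrophage-like, did not fall in both ages as a whole. It was lowest in the young day 10 library (89.5 CPM) and highest in the middle-aged day 10 library (138 CPM). Its cells with 0 or 1 T marker UMI did fall in both ages, from 109 to 34.0 CPM in young and from 104 to 73.3 in middle-aged recipients. Cells with 2 or more T marker UMIs went from 14.6% to 30.6% of cluster 5 in young and from 17.6% to 49.4% in middle-aged recipients. Unnamed cluster 8, whose microglial markers summed to 3351 CPM, went from 49.2 to 94.2 and from 69.9 to 103 CPM. These are counts of 1 library per age and day with counting intervals, and no test was made in these clusters.

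**Figure D5:**
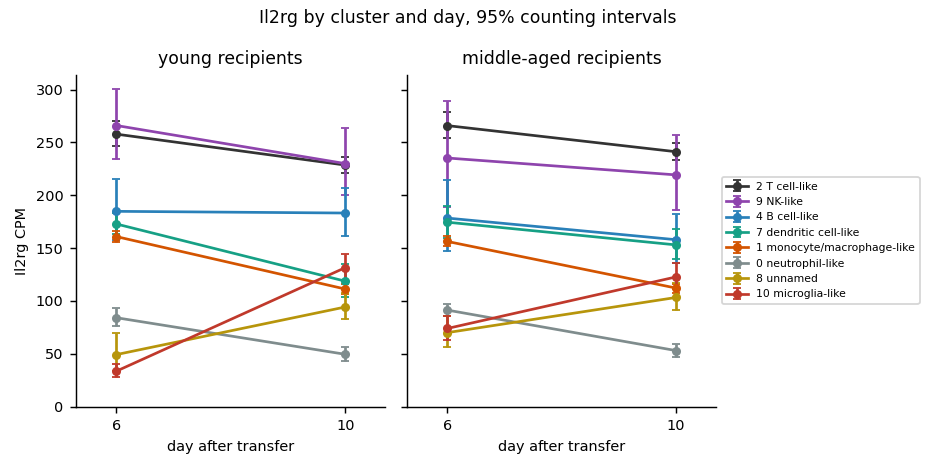
CPM of Il2rg on day 6 and day 10 in 8 clusters, young recipients left and middle-aged recipients right, with exact 95% Poisson intervals. The microglia-like line goes from 33.5 up to 131 and from 73.9 up to 123 CPM, while that of monocyte/macrophage-like cluster 1 goes from 161 down to 111 and from 156 down to 112.

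Naive microglia held the gamma chain at a low level. In the bulk libraries, with 79373420 counts in the young and 76293436 in the middle-aged sample, Il2rg had 231 and 358 counts (2.91 and 4.69 CPM, log2 0.69 [0.45, 0.93]). Il2ra had 30 and 20 counts, Il2rb 2 and 0, and Il2 had 0 in both. Microglial markers such as Tmem119 (3356 and 3430 CPM) were abundant, and the 9 T cell markers summed to 492 and 381 counts. With 1 library per age there was no replicate, and fewer cells of a type and less RNA per cell cannot be told apart in bulk RNA. Bulk read counts and UMIs were not compared.

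On day 6, UMIs of all 3 chains were found in the same cell more often in middle-aged than in young recipients. After thinning, 2.98% [2.12, 4.07], 5.75% [4.45, 7.30], 2.72% [2.03, 3.56] and 3.48% [2.78, 4.30] of the T cell-like cells had a UMI of each chain. Without thinning the shares were 15.2%, 29.8%, 29.3% and 27.4%, so at full depth the young day 6 library stood apart as the low one. NK-like cells gave 2.52%, 3.41%, 0% and 0% after thinning, and B cell-like cells 0% in all 4 libraries.

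Genes around IL-2 were compared between the days in the T cell-like cluster, where 7.22% of all genes tested were called, 451 higher and 369 lower. Among 12 regulators of the Il2 gene, 5 rose and 0 fell, with a median log2 change of 0.16 against 0.00 over all genes tested. They were the AP-1 genes Fos (276, 260, 689 and 797 CPM, log2 1.58 ± 0.20, SE, adjusted p = 2.72e-05, edgeR) and Jun (126, 142, 254 and 228 CPM, 0.95, adjusted p = 0.00385, edgeR), the NF-kappaB subunit gene Rel (56.6, 67.5, 112 and 111 CPM, 0.96, adjusted p = 0.00238, edgeR), Nfatc1 and Junb. Both day 10 libraries lay above both day 6 libraries for Fos, Jun and Rel, which was not the order of Il2 itself.

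Of 14 known targets of IL-2 and STAT5, 0 rose and 4 fell, with a median of -0.40, where 7.22% of all genes were called. Some summed markers of other cells were also lower on day 10 in this cluster: the 2 CD8 markers were at 185, 137, 85.3 and 57.7 CPM, the 7 monocyte/macrophage markers at 728, 607, 348 and 311, and the 6 B cell markers at 85, 50.6, 40.8 and 34.6. Other lists did not fall in both ages. The 7 microglia markers were at 44.9, 35.0, 59.7 and 61.5 CPM, the 8 neutrophil markers at 88.0, 238, 444 and 122, and the 7 NK markers at 580, 640, 686 and 457. All CD8 and monocyte/macrophage markers and 4 to 6 of the B cell markers had UMIs in each library, and the part of these lists in the changes of the targets was not tested. Gzmb, which encodes the cytotoxic protease granzyme B, was at 310, 417, 71.8 and 59.7 CPM (log2 -2.35 ± 0.22, SE, adjusted p = 1.12e-06, edgeR). Osm, the cytokine oncostatin M, was at 14.8, 27.0, 8.01 and 9.64 CPM (-1.10, adjusted p = 0.00425, edgeR), and Socs3, a feedback inhibitor of cytokine signalling, at 116, 117, 54.7 and 70.5 (-0.80, adjusted p = 0.00791, edgeR). Socs1, an inhibitor of the same family, was the fourth. Cish, another inhibitor of that family and a direct STAT5 target, was not called, at 0.06 ± 0.22 (SE, adjusted p = 0.943, edgeR).

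Of the other common gamma chain cytokines and receptors, 8 of 10 could be tested, 0 rose and 1 fell: Il4ra, the alpha chain of the IL-4 receptor, at 42.9, 50.6, 28.4 and 29.3 CPM (log2 -0.59 ± 0.17, SE, adjusted p = 0.0482, edgeR; median of the list -0.12). With 7.22% of all genes called, 1 of 8 is close to the background. Of the signalling genes, 9 of 10 were tested and 0 were called by edgeR or DESeq2, with 0 at an unadjusted p under 0.05. The smallest p belonged to the adaptor gene Shc1 (-0.28 ± 0.20, SE, adjusted p = 0.556, edgeR).

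Of the other T cell cytokines, 11 of 12 were tested, 3 rose and 2 fell, with a median of 0.57, again beside 7.22% of all genes. Tnfsf11 was at 34.6, 66.9, 190 and 182 CPM (log2 2.05 ± 0.24, SE, adjusted p = 1.28e-05, edgeR). Il17f was at 19.1, 126, 16.2 and 6.28 CPM (-2.21, adjusted p = 0.0264, edgeR), with the middle-aged day 6 library apart from the rest. Xcl1, a chemokine gene, was at 48.0, 7.14, 85.1 and 62.0 CPM (1.90, adjusted p = 0.000521, edgeR), with the same library apart on the low side. Tnf rose and Il22 fell. With DESeq2 the calls of Osm, Il4ra, Il17f, Xcl1 and Tnf were lost (adjusted p = 0.092, 0.418, 0.9999, 0.43 and 0.327). Without the age block those of Il17f and Xcl1 were lost (adjusted p = 0.0906 and 0.172, edgeR). With the block dropped, the calls of Osm, Socs3, Il4ra, Il17f, Xcl1 and Jun were absent without the young day 10 library, and all of these but Jun without the middle-aged day 10 library.

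By age, the same lists gave 1 call in the T cell-like cluster, of Il22 among the other T cell cytokines, where 0.0616% of 11362 genes were called by edgeR. Il22 is named after its value was seen. The other 4 lists gave 0 calls by edgeR and 0 by DESeq2, with 2 genes at an unadjusted p under 0.05 among the targets and 0 in the 3 others. This is the contrast by which Il2 was chosen, and nothing is read from the counts.

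The genes whose levels were most like those of the members were sought over 52 sums of a cluster in a library with 50 or more cells, by Pearson's r of log2(CPM + 1) among 12038 genes with 200 or more UMIs. For Il2 they were Il17f (r = 0.80), Ikzf4 (0.72) and Il17a (0.70). For Il2ra they were Camk4 (0.92), Dkkl1 (0.91) and Tnfrsf4 (0.91), and for Il2rb Sytl3 (0.98), Fasl (0.97) and Klrc1 (0.97). For Il2rg they were Rrad (0.90), Rasgrp1 (0.89) and Tpt1 (0.89). Among the members, Il2ra and Il2rb were closest (0.85), and Il2 was nearest to Il2ra (0.58). The 52 sums share 4 libraries, so these values describe the pattern across cell types and carry no p.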

How the data were processed

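For the single cells, the authors used 10x Genomics v3 chemistry, CellRanger v3.1.0, the mm10 genome and GENCODE vM23 genes, and filtered and clustered the cells in Seurat v4.0.4. What they deposited are UMI counts per cell, not normalized, with cluster numbers but no cell types. The bulk libraries were deposited as read counts from featureCounts (Subread v1.5.0-p2, strand not used) after alignment with HISAT2 v2.1.0. The labels give 1 library per age and day.

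UMIs were summed by cluster and library (Python 3.11.15, pandas 2.3.3, numpy 2.4.6, scipy 1.17.1; figures with matplotlib 3.10.9). Tests were run in R 4.3.3 with edgeR 4.0.16 (quasi-likelihood, TMM, genes with 10 or more counts in 2 or more libraries, the other factor as a block, Benjamini-Hochberg over all genes, called at an adjusted p under 0.05) and, as an alternative, DESeq2 1.42.0. With 4 libraries and 1 residual degree of freedom, no age and day had a replicate library. The residual is what the added effects of age and day leave over, and edgeR shares its variance estimate across genes. The p-values therefore do not measure the spread between replicate libraries or animals, and differences between libraries may be technical. The fit was checked on simulated data with 200 changed genes. No p-value was made from cells.

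A cluster was named only from listed markers. An Il2-rich cell had 10 or more Il2 UMIs, and a T marker split used 2 or more UMIs of the 9 T cell markers. Named genes were the 4 members, up to 3 called genes per list with the largest change (the 1 with the smallest p where none was called), and the 3 genes most correlated with each member. Socs1, Nfatc1, Junb, Tnf, Il22, Cish and the genes named in Il2-rich cells (Tnfrsf4, Trac) fell outside that rule and were chosen after their values were seen. Il9 is not among the genes of the single-cell table used here. The members and all lists were chosen with earlier results of these data known. Alternatives changed the scaling, total, filter, block, tool, depth, cells and libraries. Leaving out the highest cell, adding up all clusters (with and without the highest cell), and the splits by T markers and Foxp3 were chosen after seeing the data. Proteins were not analysed here.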

Additional observations from a re-analysis of the deposited data

Results flagged for a closer look

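The age difference in Il2ra had opposite signs in dendritic cell-like and NK-like cells on both days. The middle-aged to young log2 ratio of CPM was 1.34 [0.95, 1.74] on day 6 and 1.02 [0.52, 1.55] on day 10 in the dendritic cell-like cluster, and -0.75 [-1.70, 0.11] and -0.75 [-1.99, 0.39] in the NK-like cluster, where both intervals span 0. What stood out is that the sign was the same on both days within each cluster. The difference between the clusters was not tested.

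The day difference in Il2rg had opposite signs in the microglia-like cluster, at log2 1.97 in young and 0.73 in middle-aged recipients, and in monocyte/macrophage-like cluster 1, at -0.53 and -0.48. Both ages showed these signs, and this difference was not tested either.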

How the results depend on the processing

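Of 324 alternatives over 45 results, 246 kept the direction and side of the threshold (or stayed within the spread), 2 gained and 31 lost a call, 14 moved and 31 changed sign. No paired analysis was possible because each age and day has 1 library and so 1 replicate number. The fits instead matched libraries by the other factor, age or day, as a block. Leaving out the single highest cell, summing all clusters and splitting by T markers were chosen after seeing the data.

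Age log2 ratios of Il2 in T cell-like cells on day 6 became -4.03 without cells of other lineages' markers, 0.43 without the 10 highest cells, 1.67 without the highest cell, -0.41 with cells weighted equally and -0.29 over all cells of the library. On day 10 they became 1.27, -0.36, -0.92 and -0.77 (equal weighting did not move this value beyond its interval). Over all cells of the library without its highest cell they were 1.14 and 0.021. The values -4.03 and 1.27 depended on which of the Il2-rich cells the rule on markers kept. Il2ra on day 6 became 1.33 without the 10 highest cells. Without cells of other lineages' markers, Il2rb on day 6 became 0.55 and Il2rg on day 10 became 0.16. TMM scaling gave -0.018 for Il2rb and 0.0060 for Il2rg on day 10. The age difference in the share of cells with Il2ra on day 6 was 7.52 points at 1000 UMIs and 19.2 unthinned. On day 10 the unthinned differences were -2.92 (Il2ra), -2.48 (Il2rb) and -4.34 (Il2rg).

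The day change of Il2 in T cell-like cells was -0.67 with DESeq2 and -0.55 without the age block, neither called, and 0.75 and 0.26 without the 10 highest cells and the highest cell. That of Il2ra was 0.00086 without a filter, 0.12 without the 10 highest cells and 0.010 without the highest, and that of Il2rg was 0.070 without cells of other lineages' markers. The calls of Il2ra were lost in NK-like cells by day with DESeq2 (-1.36), no filter (-1.34) and no block (-1.40), and in dendritic cell-like cells by age with DESeq2 (1.22), no block (1.22) and in cells with 0 or 1 T marker UMI (1.03). The cause was not tested.

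Leaving out each library in turn also dropped the block, which 3 libraries cannot hold, and gave day changes in T cell-like cells of -1.58 to 0.080 (Il2), -0.62 to 0.59 (Il2ra), -0.089 to 0.19 (Il2rb) and -0.11 to 0.0049 (Il2rg). In NK-like cells it gave -0.079 to 0.17 (Il2rb, age), -1.58 to -0.07 (Il2ra, age) and -1.88 to -0.93 (Il2ra, day). In B cell-like cells Il2rg ranged from -0.12 to 0.093 (age) and from -0.12 to 0.072 (day). In dendritic cell-like cells the age differences were 0.96 to 1.46 (Il2ra), -0.14 to 0.31 (Il2rb) and -0.053 to 0.51 (Il2rg), and the day changes -0.32 to 1.12 (Il2ra, called without the middle-aged day 6 library), -0.21 to 0.27 (Il2rb) and -0.60 to -0.26 (Il2rg).

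The number of genes called depended on the setting. By day in T cell-like cells it was 820, against 360 with DESeq2 and 279 to 1925 with 1 library left out. By age there it was 7, against 6 with DESeq2, 16 with RLE size factors, 34 without a filter and 0 without the block. DESeq2 called 6 rather than 42 (age) and 18 rather than 157 (day) genes in NK-like cells, 2 rather than 66 and 17 rather than 204 in B cell-like cells, and 3 rather than 46 and 243 rather than 639 in dendritic cell-like cells. Without the filter the NK-like counts were 8 and 30 and the dendritic cell-like age count was 262. Without the block the counts by age and day were 3 and 73 (NK-like), 4 and 56 (B cell-like) and 0 and 229 (dendritic cell-like). Il2ra in NK-like cells rested on 10 to 60 UMIs per library.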
